A study of Mus musculus with 8 samples.

Results

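The histone genes of the mouse were examined in striatal RNA of adult males with 1 copy of Brd2 interrupted. They were taken by name, as every non-control probe whose gene name starts with Hist1h, Hist2h, Hist3h, Hist4h, H1f, H2af or H3f3. This gave 78 probes for 64 gene names among the 39429 probes of the array. Of these, 55 probes (49 names) belong to the replication-dependent genes of the histone clusters and 23 probes (15 names) to the variant histones. The wildtype group held 4 adult C57Bl/6j males and the heterozygous group 4 adult males genotyped by PCR for a gene-trap vector inserted in Brd2 (Brd2+/-). The males were born to heterozygous parents after repeated backcrossing to C57Bl/6J. The labels give no age in weeks. A gene trap interrupts the gene in every cell of the animal, so no cell type is singled out. Each of 4 two-colour arrays held RNA of 2 males of the same genotype, with replicates 1 and 3 in Cy3 and replicates 2 and 4 in Cy5. Replicates 1 and 2 shared an array and replicates 3 and 4 another, in both genotypes, and genotype therefore varied only between arrays. All values are log2 intensities after normalization, and a difference is the heterozygous mean minus the wildtype mean on that scale. Levels of different probes are not set against each other.

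Histones are the proteins around which DNA is wound: H2A, H2B, H3 and H4 form the core of the nucleosome, and H1 binds the linker between nucleosomes. Replication-dependent histone genes lack introns, lie in clusters and are transcribed mostly in S phase, when new DNA is packaged. Their mRNAs end in a conserved stem-loop and, in dividing cells, carry no poly(A) tail. Variant histones such as H3.3, H2A.Z and macroH2A are made outside S phase from ordinary polyadenylated mRNAs, and replace the canonical forms in neurons, which no longer divide. BRD2, the product of the targeted gene, is a BET (bromodomain and extra-terminal) protein that binds acetylated histone tails, those of H4 among them. The study's design asks how the male striatum of Brd2+/- mice differs from wildtype.

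Where in the transcript a probe lies matters for histones, since the mature replication-dependent mRNA ends just after the stem-loop. Of the 39429 probes, 7 (0.0178%) held the stem-loop pattern on the probe strand, GG, any 2 bases, CTT, any base, T, any base, AG, any 2 bases, CC. On the opposite strand 3 probes (0.00761%) held it. Of the 7 probes, 6 were replication-dependent histone probes and the other was a probe of Snrpa. The pattern with its flanks is printed below for those 6, with the stem and loop in capitals.
Hist1h3a: aaccaaaGGCTCTTTTCAGAGCCaca
Hist1h3g: ctttaaaGGCTCTTCTTAGAGCCaccca
Hist1h3i: aacaaaaGGCTCTTTTCAGAGCCccctc
Hist1h4m: aactaaaGGCCCTTTTCAGGGCCatccaa
Hist2h2bb: cccaaaaGGCTCTTTTCAGAGCCacttta
Hist2h2aa1: taaaaaGGCTCTTTTCAGAGCCacccact
Of these 6 probes, 1 (Hist2h2aa1) was well above background in 4 or more samples. Of the 49 replication-dependent probes without the pattern, 36 were. The intensity range of the dim probes is given with the H3, H4 and H2B genes.

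Other histone probes read coding sequence that is nearly the same in several genes. Of the 78 probes, 21 shared a run of at least 15 bases with another histone probe, some of them only around the stem-loop. Whether transcripts of other genes bound these probes was not tested, so their values cannot be assigned to 1 gene with certainty. The probes below cover the end of the H2A coding sequence, most of them with the stop codon, and capitals mark the longest run shared with the first probe.
Hist1h2ah: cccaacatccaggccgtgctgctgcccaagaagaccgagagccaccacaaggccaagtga
Hist2h2ac: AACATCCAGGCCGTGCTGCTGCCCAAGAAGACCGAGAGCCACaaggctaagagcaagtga
Hist1h2af: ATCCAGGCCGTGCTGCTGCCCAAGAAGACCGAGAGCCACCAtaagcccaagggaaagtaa
Hist1h2ag: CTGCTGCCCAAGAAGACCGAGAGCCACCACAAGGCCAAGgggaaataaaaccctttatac
Hist1h2ak: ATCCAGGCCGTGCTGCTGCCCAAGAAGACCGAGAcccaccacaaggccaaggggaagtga
Hist1h2an: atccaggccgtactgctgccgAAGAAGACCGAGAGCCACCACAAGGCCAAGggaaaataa
Hist2h2aa2: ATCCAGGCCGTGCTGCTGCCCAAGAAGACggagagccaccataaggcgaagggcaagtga
The shared run was 42 bases for Hist2h2ac, 41 for Hist1h2af, 39 for Hist1h2ag, 34 for Hist1h2ak, 30 for Hist1h2an and 29 for Hist2h2aa2. The brighter probe of the variant gene H2afj shares 38 bases with the Hist2h2aa2 probe, which are in capitals.
H2afj: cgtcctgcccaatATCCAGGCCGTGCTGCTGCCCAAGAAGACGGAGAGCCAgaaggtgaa

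The H4 genes encode the same protein, and the H4 probes shown here differ mainly at synonymous bases where they overlap. Other H4 probes read other stretches, such as that of Hist1h4m at the stem-loop. The first 4 probes below lie near the start of the H4 coding sequence, and capitals mark bases that differ from the first of them where they overlap.
Hist1h4k A_55_P2091147: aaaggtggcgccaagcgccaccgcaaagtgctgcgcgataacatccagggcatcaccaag
Hist1h4j: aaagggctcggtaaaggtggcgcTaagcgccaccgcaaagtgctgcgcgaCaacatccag
Hist1h4d: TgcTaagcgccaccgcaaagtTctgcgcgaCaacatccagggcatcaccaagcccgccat
Hist1h4c: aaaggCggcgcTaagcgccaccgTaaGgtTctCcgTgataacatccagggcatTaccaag
Over the overlap, 2 of 48 bases differ for Hist1h4j, 4 of 52 for Hist1h4d and 8 of 60 for Hist1h4c. A further pair lies toward the end of the H4 coding sequence, and 3 of its 25 overlapping bases differ.
Hist1h4k A_55_P2091145: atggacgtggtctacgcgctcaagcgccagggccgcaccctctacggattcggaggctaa
Hist2h4: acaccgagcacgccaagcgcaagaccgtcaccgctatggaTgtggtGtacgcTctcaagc
The last sequence shown is the H3f3a probe with the widest gap between the genotypes, which reads an open frame up to a stop codon. Its frame was not compared with the H3.3 protein, so a match to the H3.3 coding end is not established.
H3f3a A_55_P2078266: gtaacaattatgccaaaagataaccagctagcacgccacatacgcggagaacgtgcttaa

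The samples carried between 16398 and 24867 probes well above background, and the median spot was 3.72 to 10.5 times as bright as its local background (6.46 to 10.5 in Cy3, 3.72 to 5.24 in Cy5). The fewest probes stood above background in heterozygous replicate 3. Correlations over the tested probes, which are not independent replicates, were 0.986 to 0.989 between mice of 1 array and 0.925 to 0.959 between mice of different arrays. The tissue label reads striatum and the free description reads left atrium of the heart. All 10 marker genes of striatal projection neurons on the list stood clear of background in every sample. Of 6 atrial heart muscle markers, 1 did so and 2 were above background in no sample. Markers of other cell types set single samples and arrays apart. The mean level of 6 choroid plexus markers (2 above background in every sample, the others in some) was 7.005 and 7.92 in wildtype replicates 1 and 2 and 10.36 and 11.62 in replicates 3 and 4. In heterozygous replicates 1 to 4 it was 8.58, 8.28, 11.48 and 9.38. Ttr, the transthyretin of the choroid plexus, read 6.64, 9.96, 15.27 and 17.35 in wildtype and 12.41, 12.18, 17.22 and 14.64 in heterozygous replicates. All 5 tested markers of cortical excitatory neurons lay lower in the heterozygous samples, at a median difference of -1.02. Their mean level was 10.37 in wildtype replicate 1, 7.76 to 7.95 in the other wildtype samples and 7.18 to 8.48 in the heterozygous ones. For erythroid cells it was 13.70 in wildtype replicate 4 and 10.83 to 12.27 in all others, with 1 of 5 markers above background in no sample. The mean levels of the other 7 lists spanned at most 1.945 log2 units over the samples. The widest span was that of astrocytes, at 10.77 and 10.03 in wildtype replicates 1 and 2 and 11.41 and 11.97 in replicates 3 and 4. Of its markers, Aldh1l1 read 6.48 in wildtype replicate 2 and 10.65 to 12.35 in all other samples. Striatal projection neurons had a mean level of 12.26 in wildtype replicate 4 and 13.17 to 13.73 in all others. Of their 7 tested markers, 5 lay higher and 2 lower in the heterozygous samples, at a median difference of 0.47, none with an unadjusted p under 0.05. The part of these cells in the histone values was not tested. In bulk tissue, fewer cells of a type and less RNA per cell cannot be told apart.

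Histone probes stood above background more often than the array as a whole. Of the 78 probes, 49 (62.8%) were above background by the scanner's criterion in every sample and 12 (15.4%) in none, against 40.2% and 30.6% of all probes. Among the variants 17 of 23 probes were above background in every sample. The core histones H2A and H4 followed, with 11 of 15 and 10 of 14. For H1, H2B and H3 of the clusters the counts were 2 of 6, 5 of 12 and 4 of 8. The probes above background in no sample were those of Hist1h1d, Hist1h2ae, Hist1h2bg, Hist1h2bq, Hist1h3a, Hist1h3g, Hist1h3i, Hist1h4m, Hist2h2ab, Hist3h2bb-ps, H2afb1 and 1 of the 2 Hist2h4 probes. Linker histones of the germ line were dim as well: Hist1h1t (testis) and H1foo (oocyte) stood above background in 1 sample each. An exception was Hist1h2ba, known as a testis H2B, which read between 11.81 and 12.85 and was above background in all 8 samples.

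**Figure D1:**
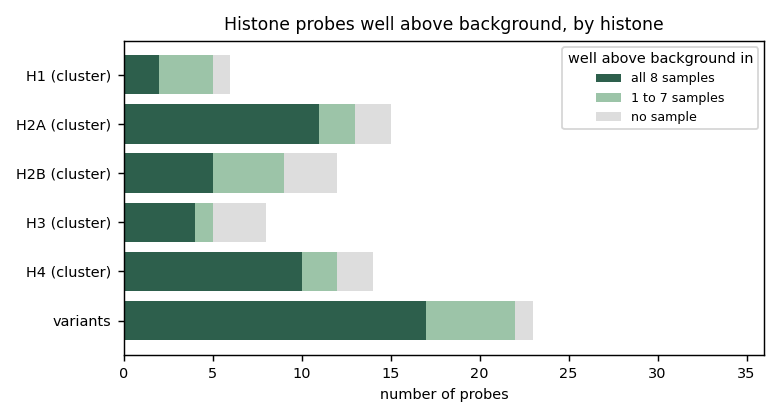
Bars give the number of histone probes (x axis) for each histone of the gene clusters and for the variants (y axis), split by the number of samples in which a probe was well above background. Variants (17 of 23) and H2A (11 of 15) have the largest dark portion, above background in all 8 samples, and H1 the smallest (2 of 6).

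Counts of detected probes by further sequence features were as follows. Of the replication-dependent probes, 4 of 55 hold AATAAA or ATTAAA, the hexamers of the signal for polyadenylation, on the probe strand. All 4 were above background in 4 or more samples, against 33 of the 51 others. They are probes of Hist1h2ag, Hist1h2be, Hist1h4i and Hist3h2ba. The hexamer alone was matched, and whether it acts as a signal was not tested. In the Hist1h2ag probe printed above it overlaps the taa at the end of the coding sequence. On that strand 6602 (16.7%) of all probes hold either hexamer, as do 4 of the 23 variant probes. All 4 of those variant probes were above background in at least 4 samples, against 15 of the other 19. On the opposite strand 2585 probes (6.56%) hold it. None of the 3 replication-dependent probes that hold it there was above background in 4 or more samples, against 37 of the other 52, and neither was the 1 such variant probe. All 8 replication-dependent probes that read an open frame up to its stop codon were above background in every sample, against 24 of the other 47. Most of the 8 are the H2A probes printed above, which share long runs, so they are not separate signals. The labelling kit named in the labels amplifies RNA with T7 RNA polymerase, and its part in these counts was not tested.

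No histone probe differed between the genotypes at an adjusted p under 0.05, which was also so for all 18399 probes tested (0%). Of the 78 probes, 56 passed the filter on dim probes, 11 of these were left out for outlier spots, and 45 were tested. Of the 45 probes, 27 lay higher and 18 lower in the heterozygous samples, with a median difference of 0.14, against 48% higher and a median of -0.02 over all probes tested. The lowest adjusted p of a histone probe, from limma with Benjamini-Hochberg adjustment, was 0.585 (Hist1h1b), and the lowest on the array was 0.435. At an unadjusted p under 0.05 there was 1 histone probe, lower, against 7.98% of all probes (3.89% higher and 4.09% lower). It was the Hist1h1b probe, which passed the filter through the wildtype group, where it is high. At least 1.5-fold apart were 2 histone probes higher and 3 lower, against 7.44% and 8.72% of all probes. The 4 values of a genotype lay wholly apart from the other 4 in 8 of the 45 probes, 6 higher and 2 lower. Over all probes this share was 16.9% (8.01% higher and 8.9% lower), near that of the histone probes. Without normalization between arrays, 1 of the 45 histone probes had groups wholly apart, and the share over all probes was not computed there.

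The replication-dependent and the variant probes differed in balance. Of the 32 replication-dependent probes tested, 16 lay higher and 16 lower, with a median difference of 0.01 (range -0.94 to 0.74). Of the 13 variant probes tested, 11 lay higher and 2 lower, with a median of 0.22 (range -0.40 to 0.59). The variant balance rested on 1 wildtype array: without wildtype replicates 3 and 4, 6 of the 13 variant probes lay higher and the median was -0.08, and without wildtype replicates 1 and 2, 10 of 13 lay higher and the median was 0.55. The same omissions gave 20 of 32 higher (median 0.17) and 12 of 32 higher (median -0.29) for the replication-dependent probes. The median deviation of the variant probes from their own means was 0.05 and 0.24 in wildtype replicates 1 and 2, and -0.27 and -0.47 in wildtype replicates 3 and 4. In the heterozygous samples it lay between 0.09 and 0.25. The same wildtype arrays differed in choroid plexus markers, with mean levels of 7.005 and 7.92 in replicates 1 and 2 and of 10.36 and 11.62 in replicates 3 and 4, and their part in the variant values was not tested. For the replication-dependent probes these medians ran from -0.18 to 0.26 in wildtype and from -0.10 to 0.20 in heterozygous samples.

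**Figure D2:**
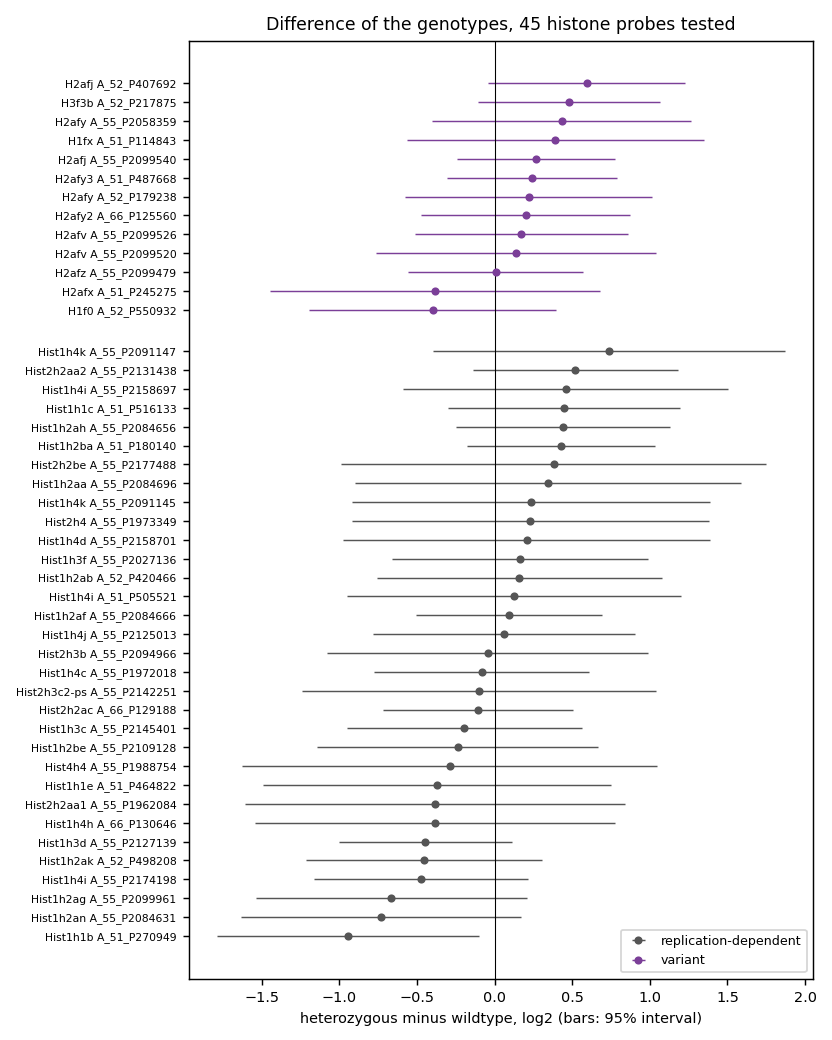
Each point is the difference of a tested histone probe (heterozygous minus wildtype, log2, x axis) with its 95% interval, in order of size within the variant (upper, 13 probes) and replication-dependent (lower, 32 probes) classes. The interval crosses 0 for every probe but Hist1h1b, which passed the filter on dim probes through the wildtype group, where it is high. Of the 13 variant points, 11 lie right of 0.

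Linker histones of the clusters gave values in both directions. The probe of Hist1h1b (H1f5 in RefSeq, the linker histone H1.5; chromosome 13, 21871923 to 21871982, mm9) read 7.59, 7.43, 8.10 and 7.96 in wildtype replicates 1 to 4. In the heterozygous replicates 1 to 4 it read 7.03, 6.35, 6.94 and 6.99. The groups did not overlap, and the probe was well above background in 4 wildtype samples and 1 heterozygous sample, so that it passed the filter through the wildtype group. The difference was -0.94 (SE 0.37, unadjusted p = 0.032, adjusted p = 0.585 by limma). A two-sided exact permutation test over samples gave p = 0.0286, the smallest that 4 against 4 allows. It takes mice of 1 array as independent, though genotype varied only between arrays, so this p cannot be read as support for a difference. Over arrays the same permutation test gave p = 0.333, the smallest that 2 against 2 allows. Hist1h1c, another linker histone (H1.2), read 10.73 to 11.17 in wildtype and 11.18 to 11.69 in heterozygous samples, without overlap, at a difference of 0.45 (SE 0.33). Hist1h1e (H1.4) differed by -0.37 (SE 0.50), less than the step between the arrays of a genotype, 1.12 in wildtype and 1.05 in heterozygous mice. Hist1h1a stood above background only in wildtype replicates 1 and 2, with 9.44 in replicate 1 and an outlier spot in replicate 2, and between 6.38 and 6.91 in the other samples.

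The H2A probes at the end of the coding sequence differed in direction among themselves, although they share long runs. Hist1h2ah read 13.17, 13.42, 13.81 and 13.69 in wildtype and 14.03, 13.95, 14.06 and 13.80 in heterozygous replicates 1 to 4. Its difference was 0.44 (SE 0.30, adjusted p = 0.799, limma), and the groups overlapped in 1 pair of samples only. On the scanner software's processed signals it was -0.08. Hist2h2aa2 (chromosome 3, 96049837 to 96049896, mm9) read 13.12, 13.37, 13.16 and 13.21 in wildtype and 13.45, 13.56, 14.08 and 13.86 in heterozygous replicates, without overlap, at 0.52 (SE 0.29, adjusted p = 0.735, limma). The probes of Hist1h2af and Hist2h2ac differed by 0.09 and -0.10, with SDs of 0.08 to 0.12 within a genotype.

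The Hist1h2an and Hist1h2ag probes of that set lay lower. Hist1h2an read 12.21, 12.48, 12.14 and 11.84 in wildtype and 11.24, 10.87, 11.998 and 11.63 in heterozygous replicates 1 to 4, at -0.73 (SE 0.40, adjusted p = 0.723, limma). The lowest pair was the array of heterozygous replicates 1 and 2, and the groups overlapped. Hist1h2ag read 12.86, 13.17, 13.15 and 13.00 in wildtype and 12.72, 12.65, 12.32 and 11.83 in heterozygous replicates, without overlap, at -0.66 (SE 0.38, adjusted p = 0.749, limma). The file lists its probe from 23666685 to 23726365 on chromosome 13 (mm9), a span of 59681 bases. The Hist1h2ak probe of this set had an outlier spot in wildtype replicate 1 and, with that spot kept, a mean of 13.62 in both genotypes. Of the rest of the H2A probes, Hist1h2aa, Hist1h2ab, Hist1h2ak A_52_P498208 and Hist2h2aa1 differed by -0.46 to 0.35, and Hist3h2a, with its outlier spot kept, by 0.05. Hist1h2ac was above background in 3 heterozygous samples and no wildtype sample, at 6.74 to 7.16 against 6.18 to 6.51.

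Among H2B and H3 of the clusters, few probes could be tested. Hist1h2ba read 12.24, 12.24, 12.14 and 11.81 in wildtype and 12.85, 12.58, 12.51 and 12.21 in heterozygous replicates 1 to 4, at 0.43 (SE 0.27, adjusted p = 0.777, limma). Only heterozygous replicate 4 lay within the wildtype range. Hist1h2be and Hist2h2be differed by -0.24 (SE 0.40) and 0.38 (SE 0.61). Of the H2B probes with outlier spots, Hist1h2bc differed by 0.32, Hist1h2bm by 0.18 and Hist3h2ba by -0.53 when the spots were kept, all with overlap.

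The H3 probe of Hist1h3d read 13.16, 13.00, 12.85 and 12.70 in wildtype and 12.30, 12.23, 12.74 and 12.65 in heterozygous replicates 1 to 4. Its difference was -0.45 (SE 0.25, adjusted p = 0.729, limma), with overlap, and the array of heterozygous replicates 1 and 2 held the lowest values. The other 4 H3 probes tested (Hist1h3c, Hist1h3f, Hist2h3b and Hist2h3c2-ps) lay between -0.20 and 0.16. The dim stem-loop probes of Hist1h3a, Hist1h3g and Hist1h3i read 5.92 to 6.70 in all samples, and that of Hist1h4m 6.34 to 6.65. The stem-loop probe of Hist2h2bb read 6.50 to 7.04 and was above background in 2 heterozygous samples. That of Hist2h2aa1, at 11.96 to 13.51, differed by -0.38 (SE 0.54) with overlap.

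1 H2B probe was seen on a single array. Hist1h2bb (chromosome 13, 23838639 to 23838698, mm9) read 11.04 and 10.42 in heterozygous replicates 1 and 2, which shared an array, and 6.10 to 6.53 in the other 6 samples. Of all 39429 probes, 359 (0.91%) were above background in both samples of that array and in no other sample, against 107 to 201 for each of the other arrays. The 21 spots around it had median deviations of -0.23 and -0.28 in the same samples.

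Most H4 probes differed more between the wildtype arrays than between the genotypes. The Hist1h4k probe at the end of the coding sequence read 11.40 and 11.09 on the array of wildtype replicates 1 and 2, and 12.64 and 12.74 on that of replicates 3 and 4. The heterozygous replicates 1 to 4 lay between, at 12.004, 12.37, 12.41 and 12.02. The overlapping Hist2h4 probe gave 11.11, 10.85, 12.12 and 12.21 in wildtype and 11.40, 11.92, 12.14 and 11.75 in heterozygous replicates. The step between the wildtype arrays was 1.44 for Hist1h4k, 1.19 for Hist2h4, 1.19 for Hist4h4, 1.14 for Hist1h4d, 0.83 for Hist1h4h and 0.77 for Hist1h4j. Over all probes tested the median size of this step was 0.35. It runs between the same arrays as the step in choroid plexus markers (Ttr 6.64 and 9.96 against 15.27 and 17.35), whose part in the H4 values was not tested. The genotype differences of these 6 probes lay between -0.39 and 0.23.

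The Hist1h4k probe near the start of the coding sequence (chromosome 13, 21842279 to 21842338, mm9) went another way. It read 9.16, 8.90, 9.04 and 9.20 in wildtype and 8.93, 9.46, 10.58 and 10.29 in heterozygous replicates 1 to 4. Heterozygous replicates 3 and 4, on the same array, were the high samples, and the groups overlapped. Its difference of 0.74 (SE 0.50, adjusted p = 0.795, limma) was the highest among the replication-dependent probes and smaller than the step of 1.24 between the heterozygous arrays. The 3 tested probes of Hist1h4i differed by -0.48, 0.12 and 0.46, the only one of 5 histone genes with several tested probes in which the signs disagreed. Hist1h4c differed by -0.08. The dim Hist4h4 probe read 7.15 and 7.08 in wildtype replicates 1 and 2 and 5.87 to 6.17 elsewhere.

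**Figure D3:**
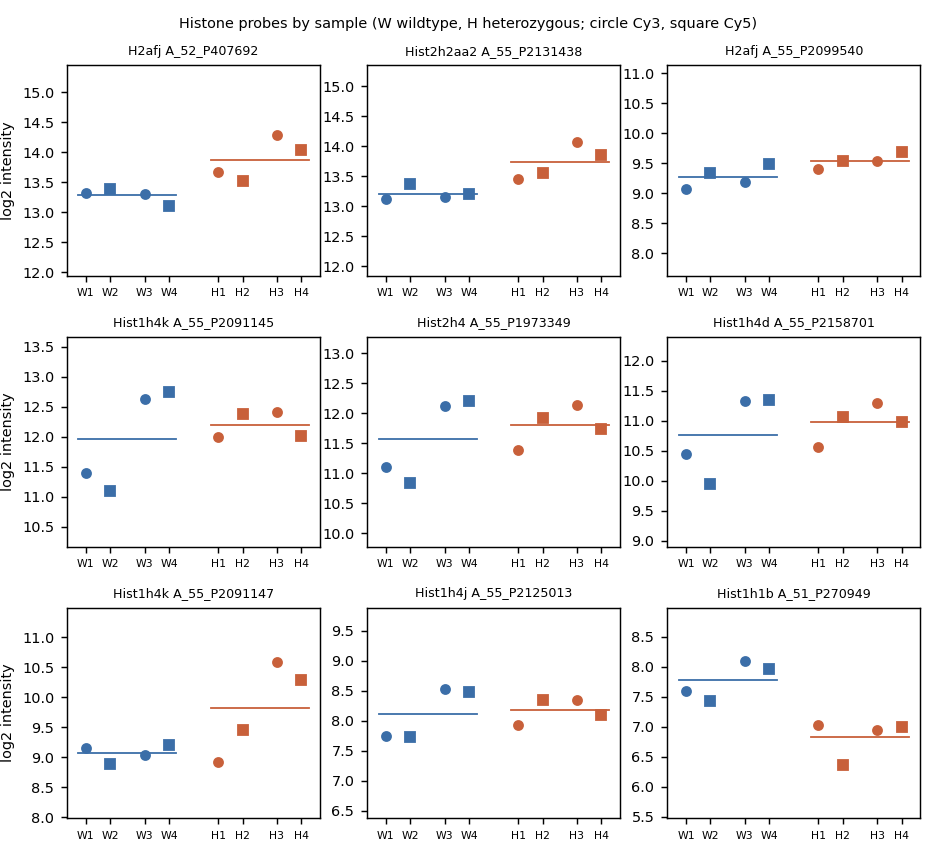
Log2 intensity (y axis) in each of the 8 samples (x axis) for 9 histone probes, with the mean of each genotype as a line; samples 1 and 2 and samples 3 and 4 shared an array. The H2afj and Hist2h2aa2 probes that share 38 bases have nearly the same pattern, and the H4 probes of Hist1h4k (A_55_P2091145), Hist2h4 and Hist1h4d are low on the array of wildtype replicates 1 and 2.

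Among the H2A variants, H2afj (H2A.J) gave the highest tested difference. Its brighter probe (chromosome 6, 136757181 to 136757240, mm9) read 13.32, 13.39, 13.31 and 13.11 in wildtype and 13.67, 13.52, 14.29 and 14.03 in heterozygous replicates 1 to 4. The groups did not overlap, and the difference was 0.59 (SE 0.28, unadjusted p = 0.063, adjusted p = 0.658, limma). This is the probe that shares 38 bases with that of Hist2h2aa2 (0.52), and signal from either transcript cannot be told apart. The second H2afj probe, with no such run, read 9.07, 9.33, 9.19 and 9.48 against 9.40, 9.53, 9.53 and 9.68, at 0.27 (SE 0.22), with overlap in wildtype replicate 4. H2afx (H2A.X, which is phosphorylated next to DNA breaks) read 12.30, 12.28, 12.40 and 11.66 in wildtype and 12.65, 12.18, 11.21 and 11.06 in heterozygous replicates. Its difference of -0.38 (SE 0.47) came from the array of heterozygous replicates 3 and 4, and was 0.25 without that array.

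H2A.Z, a variant found at promoters, is encoded by H2afz and H2afv. The tested H2afz probe read 13.05 to 13.60 in wildtype and 13.07 to 13.59 in heterozygous samples, a difference of 0.01 (SE 0.25, 95% interval -0.56 to 0.57). A second H2afz probe with 3 outlier spots differed by 0.25 with the spots kept. The H2afv probes differed by 0.17 (SE 0.30) and 0.14 (SE 0.40), and the latter read 9.73 and 9.68 on one wildtype array and 8.79 and 8.27 on the other. The second value was -0.45 without wildtype replicates 3 and 4.

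MacroH2A carries a large extra domain and is rich on the inactive X chromosome. H2afy (macroH2A1) read 9.54, 9.56, 8.52 and 8.52 in wildtype and 9.12, 9.39, 9.52 and 9.85 in heterozygous replicates by A_55_P2058359, at 0.43 (SE 0.37). A_52_P179238 of the same gene read 9.69, 9.81, 8.68 and 8.82 against 9.48, 9.90, 9.13 and 9.37, at 0.22 (SE 0.35). A further H2afy probe, with outlier spots kept in wildtype replicates 3 and 4, differed by -0.35. H2afy2 (macroH2A2) read 11.58, 11.56, 10.92 and 10.83 in wildtype and 11.10 to 11.63 in heterozygous samples, at 0.20 (SE 0.30). For these 3 tested probes the wildtype array of replicates 3 and 4 was low, and without it the differences were -0.08, -0.28 and -0.15. H2afy3 read 9.45 to 9.74 and 9.75 to 9.95, without overlap, at 0.24 (SE 0.24, adjusted p = 0.898, limma).

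The variant linker histones split. H1f0 (H1.0, typical of cells that have stopped dividing) read 8.28, 8.12, 7.77 and 8.03 in wildtype and 7.21, 7.55, 7.69 and 8.16 in heterozygous replicates 1 to 4, at -0.40 (SE 0.35), with overlap in replicate 4. H1fx (H1.10) read 9.16, 10.06, 8.35 and 8.79 in wildtype and 8.69, 9.75, 9.40 and 10.08 in heterozygous replicates, at 0.39 (SE 0.42), and at -0.13 without wildtype replicates 3 and 4. The germ-line variants H1fnt, H1foo and H2afb2-ps were above background in 1 sample each and were not tested.

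**Figure D4:**
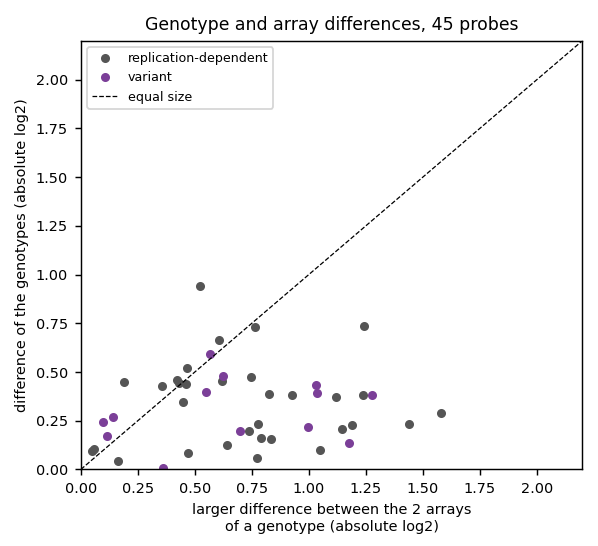
For each of the 45 tested histone probes, the absolute difference between the genotypes (y axis, log2) is set against the larger of the 2 absolute differences between arrays of the same genotype (x axis, log2), with a line of equal size. In 13 probes, those above the line, the genotype difference was the larger, 9 of 32 replication-dependent and 4 of 13 variant probes. The count was not made over all probes.

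Across the 45 probes, the arrays of a genotype differed by a median of 0.42 in wildtype and 0.40 in heterozygous mice, against 0.35 and 0.32 over all probes tested. The mice of an array differed by a median of 0.22, against 0.16. The difference between genotypes exceeded both differences between arrays of a genotype in 13 of the 45 probes. That count was not made over all probes, so it cannot be set against the array.

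H3.3, the H3 that is loaded outside S phase by HIRA and by DAXX with ATRX, comes from H3f3a and H3f3b, which encode the same protein. Of their 5 probes, 4 had spots that the scanner software flagged as not uniform and were not in the main test, so their values are given with these spots kept. H3f3a A_55_P2078266 (chromosome 1, 182733208 to 182733267, mm9) read 11.004, 10.98, 11.13 and 10.91 in wildtype and 13.01, 12.82, 12.04 and 12.14 in heterozygous replicates 1 to 4. The flagged spots were those of wildtype replicates 1 and 2 and of heterozygous replicates 3 and 4. Every heterozygous value was above every wildtype value, as it was for 9.33% of all probes with such spots kept. The difference was 1.495 (SE 0.32, unadjusted p = 0.00115, adjusted p = 0.283, limma). Among the samples with no flagged spot, wildtype replicates 3 and 4 read 11.13 and 10.91 and heterozygous replicates 1 and 2 read 13.01 and 12.82, which is 1 array of each genotype.

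The size of this difference depended on how the spot was read. It was 0.87 on the scanner software's processed signals, 1.60 in the deposited value table, and 1.08 to 1.91 without 1 array at a time, with adjusted p values of 0.157 to 0.999 by limma over these alternatives. The second H3f3a probe, A_55_P2065369, read 12.01, 12.23, 11.67 and 11.78 in wildtype and 12.15, 12.53, 12.72 and 12.87 in heterozygous replicates, at 0.65 (SE 0.28, adjusted p = 0.556, limma). The groups overlapped, and the processed signals gave 0.03. The same 4 samples had flagged spots.

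The H3f3b probes went both ways. A_55_P2059164 read 12.42, 12.19, 10.53 and 10.66 in wildtype and 13.37, 13.47, 12.74 and 12.70 in heterozygous replicates 1 to 4, without overlap, at 1.62 (SE 0.51, adjusted p = 0.411, limma). Wildtype replicate 1 was flagged, and the step between the wildtype arrays exceeded the genotype difference: without wildtype replicates 3 and 4 the difference was 0.76, and without replicates 1 and 2 it was 2.47. A_55_P1982030 read 10.73, 10.77, 11.39 and 11.28 in wildtype and 10.71, 10.59, 10.18 and 10.42 in heterozygous replicates, lower without overlap, at -0.57 (SE 0.31, adjusted p = 0.669, limma). The file places 21 bases of the former probe and 31 of the latter at the same position on chromosome 11, from 115883275 (mm9). The H3f3b probe in the main test, A_52_P217875, read 6.86, 6.96, 6.22 and 6.37 in wildtype and 7.05, 7.09, 7.01 and 7.17 in heterozygous replicates. It was above background in 1 wildtype and 3 heterozygous samples, passed the filter through the heterozygous group, and differed by 0.48 (SE 0.26, adjusted p = 0.72, limma).

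**Figure D5:**
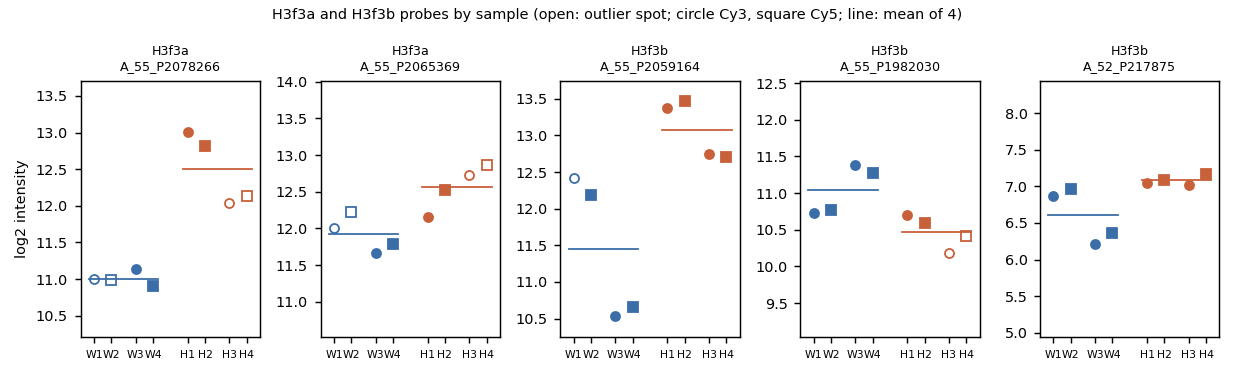
Log2 intensity (y axis) of the 5 probes of the H3.3 genes H3f3a and H3f3b in each sample (x axis), with outlier spots kept and drawn open, and lines for the genotype means. H3f3a A_55_P2078266 and H3f3b A_55_P2059164 lie higher in all heterozygous samples (1.495 and 1.62) and H3f3b A_55_P1982030 lower (-0.57).

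Genes that make, load or need histones were read from 4 lists, each gene by its brightest tested probe, and none passed an adjusted p of 0.05. Of 26 genes for transcription and 3-prime processing of histone mRNA, 20 were tested, 7 higher and 13 lower, at a median of -0.10 (0.09 without heterozygous replicates 3 and 4). The mean level over the list was 9.54 to 9.64 in wildtype and 9.35 to 9.68 in heterozygous samples. An unadjusted p under 0.05 was found for 1 gene higher and 1 lower, against 3.89% and 4.09% of all probes. Pou2f1, the octamer-binding factor OCT1, differed by 0.81 (SE 0.34, adjusted p = 0.607, limma), with 8.08 to 9.04 in wildtype and 9.04 to 9.67 in heterozygous samples. Snrpf, the Sm protein F of spliceosomal snRNPs, differed by -0.80 (SE 0.34, adjusted p = 0.61, limma), with 10.81 to 11.17 against 9.86 to 10.61 and no overlap. Sympk (symplekin, a scaffold of 3-prime processing) differed by -0.54 and Srrt (ARS2) by 0.45.

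Of 40 genes for histone chaperones and exchange complexes, 34 were tested, 13 higher and 21 lower, at a median of -0.05. This median was -0.14, -0.16 and -0.15 without wildtype replicates 1 and 2, wildtype replicates 3 and 4 and heterozygous replicates 1 and 2. Of the 34, 5 had an unadjusted p under 0.05, all lower, against 4.09% of all probes. The largest difference of the 5 was that of Tonsl, at -2.15 (SE 0.81, adjusted p = 0.561, limma). Tonsl read 10.80 and 11.06 in wildtype replicates 1 and 2, 7.63 and 8.50 in replicates 3 and 4, and 7.30 to 7.42 in heterozygous samples. Without overlap lay 7 lower and 2 higher, against 8.9% and 8.01%. The mean level over the list was 10.21 to 10.31 in wildtype and 10.04 to 10.07 in heterozygous samples. Anp32e, the chaperone that removes H2A.Z, read 10.02, 10.34, 9.94 and 10.09 in wildtype and 8.40, 8.61, 9.21 and 9.20 in heterozygous replicates, at -1.24 (SE 0.30, unadjusted p = 0.00234, adjusted p = 0.435, limma). Chaf1a, the large subunit of the replication chaperone CAF-1, differed by -0.66 (SE 0.23, adjusted p = 0.517, limma) without overlap. Asf1a, the chaperone that hands H3 and H4 to HIRA and CAF-1, read 7.81 to 7.92 and 8.18 to 8.35, at 0.42 (SE 0.22), but -0.07 on the processed signals. Daxx, an H3.3 chaperone, differed by 0.51 (SE 0.36).

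Genes of S phase and of dividing cells lay on both sides of 0. Of 38 genes for DNA replication, 27 were tested, 10 higher and 17 lower, at a median of -0.08. This median was 0.04 on processed signals and -0.17 without wildtype replicates 1 and 2, and the mean level was 8.53 to 8.75 in wildtype and 8.53 to 8.64 in heterozygous samples. An unadjusted p under 0.05 was found for 1 of the 27, against 7.98% of all probes. It was Mcm4, a subunit of the replicative helicase, at 0.93 (SE 0.41, adjusted p = 0.626, limma), with 9.61 and 9.76 on one wildtype array and 8.39 and 8.24 on the other. Pold1 (DNA polymerase delta) differed by 0.52, Rpa1 (single-strand binding) by -0.44 and Lig1 (DNA ligase) by -0.40. None of 16 markers of proliferating cells was above background in all 8 samples and 5 were in no sample. Of the 6 tested, 2 lay higher and 4 lower, at a median of -0.23, with mean levels of 7.23 to 7.61 in wildtype and 7.22 to 7.30 in heterozygous samples. The median was -0.064 without wildtype replicate 2, -0.060 without wildtype replicate 3 and -0.71 on processed signals. Ccnb2 (cyclin B2) differed by -0.46, Birc5 (survivin) by -0.35, Plk1 by 0.25 and Aurka by 0.17, the latter both mitotic kinases.

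Neither probe of the targeted gene read lower with the trap. The Brd2 probe with the higher intensity, A_55_P1958678, read 11.05, 10.76, 12.01 and 12.02 in wildtype and 11.68 to 11.82 in heterozygous samples, a difference of 0.29 (SE 0.35, adjusted p = 0.932, limma). A_55_P1953545 read 6.90 to 7.39 against 7.75 to 8.17, at 0.88 (SE 0.28, adjusted p = 0.502, limma). Where the trap lies relative to these probes was not known here, so the probes do not check the labels.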

How the data were processed

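Total RNA of 8 mice was measured on 4 two-colour Agilent arrays of 1 slide. The scanner files hold the deposited spot and background intensity of each channel, read by Agilent Feature Extraction 11.0.1.1, per the file headers, together with processed intensity values that the software corrected for background and dye. In the deposited value table each entry is a ratio: median signal less median background of the sample's channel, over the median of its column, which is 1 throughout. This was found by comparison with the scanner files (100% of values equal), with no centring of probes, and no header or label states it. From the deposited intensities, log2 values were computed here.

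Own-channel values were corrected with normexp (offset 50) and normalized by loess within arrays and by Aquantile across them (limma 3.58.1, R 4.3.3). Control and outlier spots were left out and spots of a probe averaged. A probe was kept if well above background in at least 4 of 8 samples; 22288 were, and 3889 of these lacked a value for outlier spots, leaving 18399. The fit (lmFit, eBayes) had dye as covariate and array as random block, whose estimated correlation was 0.81, with Benjamini-Hochberg adjustment over all probes. Single probes were also tested with exact permutations over samples and over arrays, and those over samples take mice of 1 array as independent. The samples are separate mice that share arrays, so p-values measure the spread between mice and arrays, and the 4 arrays limit precision. The fit was run on simulated data with 50 changed probes at each fold and the median spread of the probes. It recovered 10% of 1.5-fold, 36% of 2-fold and 100% of 4-fold and 8-fold changes, with 12 false calls. Differences of 2-fold or less would therefore mostly be missed.

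Coordinates are those of the files (mm9, per the file headers), and probe sequences are the files' own. Of the 78 probes, 74 matched a symbol of a RefSeq table (GRCm38.p6), and 23 are listed with several transcripts. Named in full were all tested probes of 10 chosen variant genes, replication-dependent probes with unadjusted p under 0.05, and the 4 lowest p in each direction, plus 2 in each direction of each list. Other probes were named after their values were seen. The members, lists and rules were chosen with earlier results of these data known. Alternatives covered background, normalization, filters, blocks, dyes, and each sample or array left out.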

Additional observations from a re-analysis of the deposited data

Results flagged for a closer look

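In 3 of the 76 genotype groups examined, a sample lay far from the other 3, where chance gives about 1 in 20. H2afx read 11.66 in wildtype replicate 4, against 12.28 to 12.40 in the other wildtype samples. Hist1h1b read 6.35 in heterozygous replicate 2, against 6.94 to 7.03. Ccnb2 read 7.62 in wildtype replicate 1, against 7.23 to 7.28.

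3 histone probes outside the test were above background in 2 or more heterozygous samples and in no wildtype sample. Hist1h2bb reached 11.04 (wildtype 6.10 to 6.53), on 1 array only. Hist1h2ac reached 7.16 (wildtype 6.18 to 6.51), and Hist2h2bb reached 7.04 (wildtype 6.50 to 6.99). Hist1h1t, Hist1h2bp, H1fnt and H1foo were above background in 1 heterozygous sample each and in no wildtype sample. The reverse held for Hist1h1a and the dim Hist4h4 probe, in 2 wildtype samples each, and for H2afb2-ps in 1. The share of all probes with either pattern was not computed, so no direction can be read from these counts.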

How the results depend on the processing

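No histone probe was called under any of the alternatives run, with lowest adjusted p values from 0.0564 (no array block) to 0.9998. Over all probes, 0 were called in the main fit (1468 at an unadjusted p under 0.05), 1 in the authors' value table, 529 without the array block, 0 to 1 with 1 sample left out, 17 without wildtype replicates 1 and 2, 14 without wildtype replicates 3 and 4 and 5 without heterozygous replicates 3 and 4. Histone probes with groups wholly apart numbered 8, against 1 without normalization between arrays, 0 of 58 in the value table, 20 with Cy3 samples alone and 17 with Cy5 alone. With fewer samples they numbered 21, 19, 15 and 18 without wildtype replicates 1 and 2, wildtype 3 and 4, heterozygous 1 and 2 and heterozygous 3 and 4, where fewer values need to separate. The share over all probes was not computed under these alternatives, so the counts cannot be set against the array. Without wildtype replicates 1 and 2 the median difference was -0.29 for replication-dependent and 0.55 for variant probes.

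Of 1226 further values of single probes and lists, 1195 kept direction and side of the threshold (lists: within the spread of the samples) and 3 passed the threshold without the array block (Anp32e, Chaf1a and Brd2 A_55_P1953545). The 9 list medians that moved stand with the lists. H2afz reversed to -0.018 without normalization between arrays and -0.082 with Cy3 alone, ran from -0.027 to 0.052 with 1 sample left out, and was -0.10 without wildtype replicates 1 and 2 and -0.17 without heterozygous replicates 1 and 2. On processed signals H2afv A_55_P2099526 read -0.036, Hist1h2ah -0.084 and Asf1a -0.073. Without wildtype replicates 1 and 2, Daxx read -0.055 and Brd2 A_55_P1958678 -0.27. Without wildtype replicates 3 and 4, H1fx read -0.13, H2afv A_55_P2099520 -0.45, H2afy -0.28 and -0.083 and H2afy2 -0.15. Without heterozygous replicates 3 and 4, H2afx read 0.25. The cause was not tested. With all 8 samples required above background, no marker of proliferating cells was left. Deviations of same-numbered samples correlated at 0.04 to 0.26, and 2 of 4 wildtype samples correlated best with their own number. Replicate number also goes with dye, so these values cannot decide whether the numbers pair the mice. With the replicate block, 0 probes were called and 2088 had an unadjusted p under 0.05. The H3.3 probes with outlier spots kept, without each array or on processed signals, were alternatives chosen after seeing the data. Dim probes limit what the clusters' H1, H2B and H3 can show.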
